A study of Mus musculus with 2 samples.

Results

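Collagen genes were read in the dorsal skin of mice with mite-induced dermatitis, as every gene on the array whose platform symbol has the form Col, a number, a and a number. The rule found 44 genes among 22180 genes with a symbol of their own, read by 47 of 23521 single-symbol probes, and 3 of them (Col1a2, Col5a1 and Col6a1) had more than 1 probe, which were averaged. The ZAG-treated skin came from female mice of the inbred, dermatitis-prone strain NC/Nga, given mite ointment and topical recombinant ZAG (zinc-alpha-2-glycoprotein, a secreted lipid-mobilising protein) at 1 µg/mL. The control skin came from female NC/Nga mice given the same mite ointment, and the labels do not say whether they received a vehicle. Mice of both groups started at 6 weeks of age, were treated for 6 weeks and were sampled at 13 weeks, so both groups carry the dermatitis and no healthy skin was analysed here. The series text names 3 mice per group, while the table holds 1 array per group, and whether an array is 1 mouse, a pool or a mean is not stated. The values below therefore have no replicate error and no p-value, and a difference is one between 2 arrays. Differences are ZAG minus control on the log2 scale of the deposited values, so that -1 is a level 2-fold lower with ZAG.

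Collagens are secreted or membrane-bound proteins built of 3 chains wound into a triple helix, held together by glycine at regular steps. Fibroblasts of the dermis make the fibrillar collagens that give skin its tensile strength, and fibril-associated collagens coat those fibrils. Beaded filaments of type VI collagen surround cells, type IV networks form the sheet of the basement membrane, type VII anchoring fibrils tie that sheet to the dermis, and the transmembrane type XVII collagen holds basal keratinocytes to it.

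Upstream sequence is shown for 4 collagens whose levels are described below, 1 fibrillar chain of type I (Col1a2), the type III chain (Col3a1), a type VI chain (Col6a1) and the hemidesmosomal Col17a1. The RefSeq promoter table (build GRCm38.p6) held 35 of the 44 genes, and of each window the 250 bases before the listed start were used. Col1a2 lies at chr6:4505368-4505617 on the plus strand, Col3a1 at chr1:45311288-45311537 on the plus strand, Col6a1 at chr10:76726045-76726294 on the minus strand and Col17a1 at chr19:47692043-47692292 on the minus strand. Each is written 5′ to 3′ in the direction of its gene. Capitals mark CCAAT (the CAAT box), GGGCGG (the GC box), TATAAA (the TATA box) and TGANTCA (the AP-1 motif), searched on both strands, with overlaps allowed.
Col1a2: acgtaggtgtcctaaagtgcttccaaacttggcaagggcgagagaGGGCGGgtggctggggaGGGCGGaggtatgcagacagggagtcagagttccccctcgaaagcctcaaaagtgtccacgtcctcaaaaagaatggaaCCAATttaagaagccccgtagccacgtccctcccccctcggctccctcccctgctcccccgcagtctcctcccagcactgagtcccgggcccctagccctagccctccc
Col3a1: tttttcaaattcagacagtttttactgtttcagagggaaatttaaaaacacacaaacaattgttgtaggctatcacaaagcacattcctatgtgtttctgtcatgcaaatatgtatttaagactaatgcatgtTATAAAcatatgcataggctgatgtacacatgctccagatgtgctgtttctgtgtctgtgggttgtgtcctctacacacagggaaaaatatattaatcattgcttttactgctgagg
Col6a1: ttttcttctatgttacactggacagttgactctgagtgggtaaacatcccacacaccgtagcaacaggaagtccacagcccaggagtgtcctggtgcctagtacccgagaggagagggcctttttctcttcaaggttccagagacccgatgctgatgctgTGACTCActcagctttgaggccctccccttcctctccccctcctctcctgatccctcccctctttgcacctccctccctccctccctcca
Col17a1: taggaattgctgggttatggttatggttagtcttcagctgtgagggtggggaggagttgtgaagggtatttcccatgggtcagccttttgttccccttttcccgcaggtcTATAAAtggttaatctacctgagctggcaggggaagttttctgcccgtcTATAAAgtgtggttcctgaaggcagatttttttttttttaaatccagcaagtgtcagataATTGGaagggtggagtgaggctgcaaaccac
Col1a2 held CCAAT 109 bases before its start and GGGCGG 205 and 188 bases before it, whereas Col3a1 held TATAAA 117 bases before its start. Col17a1 held TATAAA 140 and 91 bases before its start and the reverse complement of CCAAT 31 bases before it. CCAAT stood in 13 of the 38 windows of the 35 collagen genes and in 33.9% of all 32841 RefSeq windows. GGGCGG stood in 22 of 38 collagen windows and in 32.7% of all windows. TATAAA stood in 5 of 38 and 12.4% of all windows. TGANTCA stood in 1 of 38, that of Col6a1, and in 6.75% of all windows. These matches are letters in a window and not sites of binding.

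Most collagen genes were lower on the ZAG array than on the control array. Of the 44, 33 were lower and 11 higher, where 47.9% of all 22180 genes were lower. The median difference of the collagens was -0.19, beside 0.01 over all genes. A background gauge of 3.16, the level below which 95% of 1390 olfactory and vomeronasal receptor genes lay, was passed by 35 collagens on both arrays and by 3 on 1 array. The other 6 (Col6a4, Col10a1, Col9a1, Col19a1, Col22a1 and Col28a1) lay at 2.15 to 3.11 on both arrays, so their signs, 4 lower and 2 higher within the 33 and 11, read background. Over the 38 above the gauge on at least 1 array, 29 were lower and 9 higher with a median of -0.22, where 47.5% of all genes above it were lower and their median was 0.02. Of the 29 collagens with a mean level that reached the median of all genes (3.87), 24 were lower and 5 higher, with a median of -0.35. Among all 11090 genes at that level 47.6% were lower and the median was 0.02. At least 1.5-fold lower were 6 of the 29, where 5.08% of all genes were, and at least 1.5-fold higher were 0, where 2.48% of all genes were. At least 2-fold lower was 1, Col12a1 (1.15% of all genes), and at least 2-fold higher were 0 (0.271% of all genes). As a scale for probe error, the differences of probes of the same gene had an SD of 0.244. That SD was taken over 591 genes with several probes and a mean level at or above the median. It says nothing of differences between mice. In whole skin, fewer collagen-making cells and less collagen mRNA per cell cannot be told apart.

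**Figure D1:**
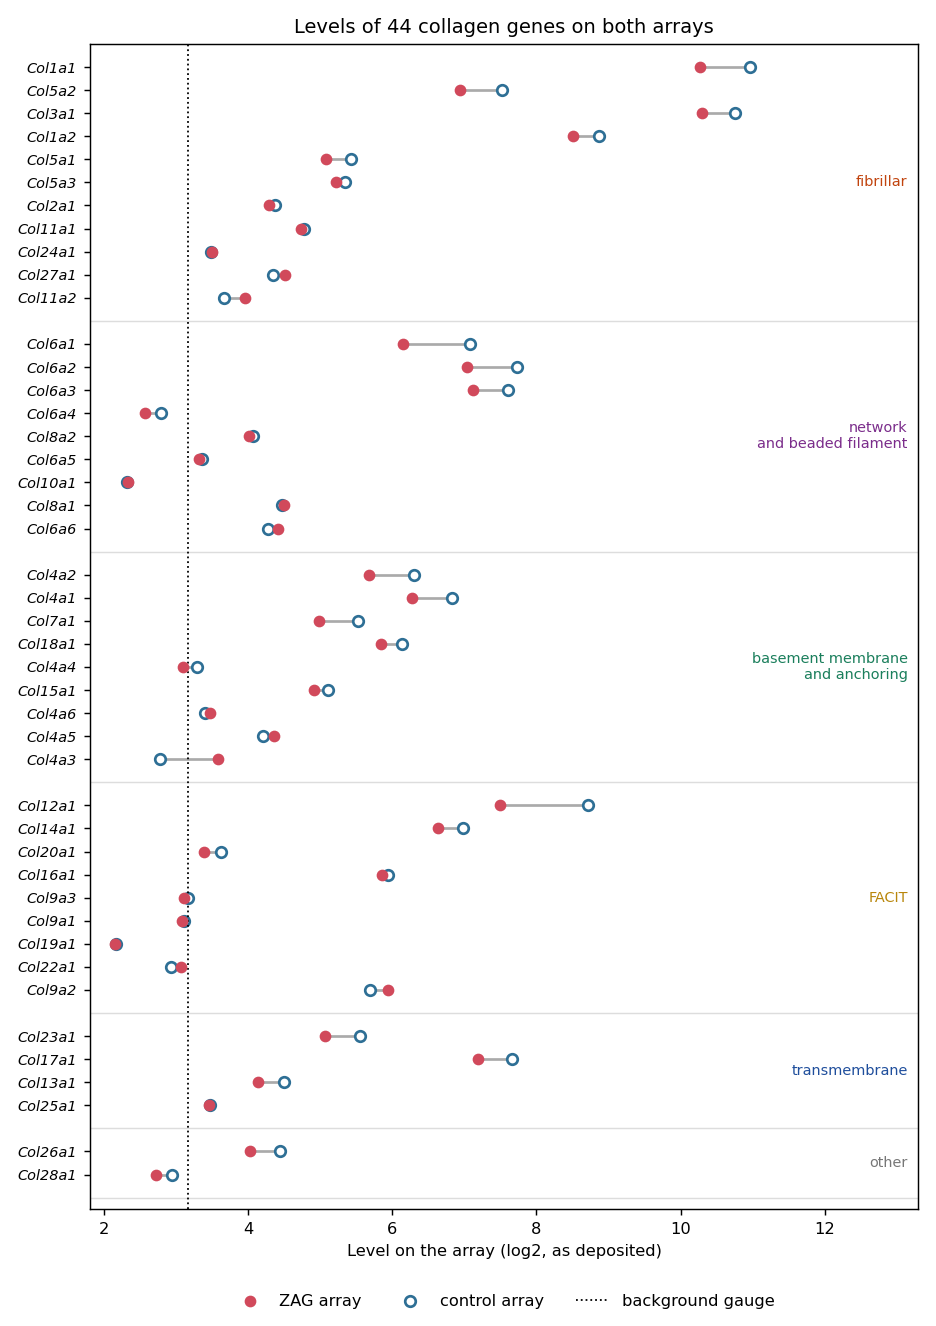
Log2 level of each of the 44 collagen genes on the ZAG array (filled) and the control array (open), by class and, within a class, from the most negative difference to the most positive. The dotted line is the background gauge of 3.16, and the filled point lies left of the open one for 33 genes.

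Among the fibrillar collagens the chains of types I, III and V were lower with ZAG, and the other fibrillar genes lay between -0.08 and 0.29. Of 11 measured, 8 were lower and 3 higher, with a median of -0.12, where 47.9% of all genes were lower. Col1a1, which encodes the chain present as a pair in each type I molecule of the dermal fibril, was at 10.27 on the ZAG array and 10.96 on the control array, a difference of -0.70 (1.62-fold lower). Its partner chain Col1a2 was at 8.51 with ZAG and 8.86 in control, a difference of -0.35. The probes of Col1a2 did not give the same size. The brighter one read 9.78 with ZAG and 10.35 in control (-0.57), and the dimmer one 7.24 with ZAG and 7.38 in control (-0.14). Both type I genes were thus lower, Col1a2 by less than Col1a1 on either probe. Col3a1, the chain of type III collagen, which forms the finer fibrils of dermis and vessel walls, was at 10.30 with ZAG and 10.75 in control, a difference of -0.46 (1.37-fold lower).

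Type V collagen sits inside type I fibrils and starts their assembly. Col5a2 was at 6.94 with ZAG and 7.52 in control, a difference of -0.59 that lies just past 1.5-fold. Col5a1 was at 5.08 with ZAG and 5.43 in control (-0.35), and its probes gave -0.47 (6.84 with ZAG and 7.32 in control) and -0.22 (3.33 with ZAG and 3.55 in control). Col5a3, a type V chain of narrower distribution, was at 5.22 with ZAG and 5.34 in control (-0.12), within the SD of 0.244 between probes. The remaining fibrillar genes are known chiefly from cartilage and other tissues. Col2a1, the main cartilage collagen, was at 4.29 with ZAG and 4.38 in control. Col11a1, a chain of type XI that nucleates cartilage fibrils, was at 4.73 with ZAG and 4.78 in control, and Col24a1 at 3.50 with ZAG and 3.49 in control. Those 3 genes differed by less than 0.1, and Col5a1, Col5a2 and the genes of types I and III were the ones lower by more than the SD between probes. Col27a1 was at 4.51 with ZAG and 4.35 in control, 0.16 higher. Col11a2 was at 3.96 with ZAG and 3.66 in control, 0.29 higher and so past that SD. Its mean level was below the median of all genes, where the SD was not taken.

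In the network and beaded filament class the type VI genes Col6a1, Col6a2 and Col6a3 were lower, and the type VIII genes differed by less than 0.05. These type VI chains form one heterotrimer, the unit of the beaded filaments around cells. Col6a1 was at 6.15 with ZAG and 7.07 in control, a difference of -0.92 (1.89-fold lower), and its probes agreed, at -0.93 (7.95 with ZAG and 8.88 in control) and -0.91 (4.35 with ZAG and 5.26 in control). Col6a2 was at 7.03 with ZAG and 7.73 in control, a difference of -0.70 (1.62-fold lower). Col6a3, the longest of these chains, was at 7.12 with ZAG and 7.61 in control, a difference of -0.49 (1.40-fold lower). All of these chains were lower by more than the SD between probes. The other type VI genes encode chains that can stand in for Col6a3 and have a narrower distribution. Col6a5 was at 3.31 with ZAG and 3.35 in control, and Col6a6 at 4.41 with ZAG and 4.27 in control (0.14 higher), while Col6a4 was below the gauge on both arrays. Col8a1 and Col8a2 encode type VIII collagen, a hexagonal network of vessel walls and of the cornea. Col8a1 was at 4.49 with ZAG and 4.47 in control, and Col8a2 at 4.02 with ZAG and 4.06 in control. Both lay well within the SD between probes. Col10a1, the type X gene of growing cartilage, was below the gauge on both arrays. Over the 7 genes of the class above the gauge the median was -0.04, with 5 lower and 2 higher. Of all genes above the gauge 47.5% were lower.

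Basement membrane and anchoring collagens were divided by chain. Of 9 genes 6 were lower and 3 higher, with a median of -0.20, where 47.9% of all genes were lower. Col4a1 and Col4a2, whose products form the type IV network found in nearly all basement membranes, were both lower. Col4a1 was at 6.28 with ZAG and 6.82 in control, a difference of -0.55 (1.46-fold lower and just short of 1.5-fold), and Col4a2 was at 5.67 with ZAG and 6.30 in control, a difference of -0.63 (1.54-fold lower). These genes stand head to head, and their RefSeq starts overlap by 22 bases at chr8:11312805-11312826 (GRCm38.p6), shown on the plus strand because it is the stretch from which both genes are read, in opposite directions. Motifs were not marked in this stretch, which holds GGGCGG in lower case.
Col4a1 and Col4a2: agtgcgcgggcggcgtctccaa
The other type IV genes showed no such difference. Col4a5 and Col4a6, which form the network of the epidermal and smooth muscle basement membranes, were at 4.35 and 3.47 with ZAG and at 4.20 and 3.40 in control, differences of 0.15 and 0.07. Col4a3 and Col4a4 are best known from the kidney filter. Col4a3 was at 3.58 with ZAG and below the gauge in control (2.77), which makes it at least 1.34-fold higher. On the values as read (0.81 higher) it was the one collagen at any level at least 1.5-fold higher, where 2.21% of all genes were. Its head-to-head neighbour Col4a4 was below the gauge with ZAG (3.10) and at 3.29 in control, at least 1.09-fold lower. Both were read at the edge of the background.

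Col7a1, the anchoring fibril gene whose loss causes blistering below the epidermis, was at 4.98 with ZAG and 5.53 in control, a difference of -0.54 (1.46-fold lower). Col18a1, the source of the fragment endostatin and a heparan sulphate proteoglycan of basement membranes, was at 5.84 with ZAG and 6.13 in control (-0.29). Its relative Col15a1 was at 4.91 with ZAG and 5.10 in control (-0.19). Of these, Col15a1 differed by less than the SD between probes.

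Col12a1 had the most negative difference of any collagen. It is a fibril-associated collagen with interrupted triple helices (FACIT) that binds the surface of type I fibrils, and it is known to rise in tissue under tension and in wounds. It was at 7.50 with ZAG and 8.71 in control, a difference of -1.22 (2.32-fold lower), which placed it 77th from the lowest among the 11090 genes at or above the median level. Col14a1, its close relative on dermal fibrils, was at 6.63 with ZAG and 6.98 in control (-0.35, 1.28-fold lower). The remaining members moved little or the other way. Col16a1, found near the dermal-epidermal junction, was at 5.85 with ZAG and 5.94 in control (-0.09), and Col20a1 at 3.39 with ZAG and 3.63 in control (-0.24). Type IX collagen coats cartilage fibrils, and of its genes Col9a2 was at 5.94 with ZAG and 5.69 in control, 0.25 higher. Col9a3 was below the gauge with ZAG (3.11) and just above it in control (3.17), and Col9a1 was below it on both arrays. Of the 6 FACIT genes above the gauge on at least 1 array, 5 were lower, where 47.5% of all genes above it were. The other 1 was higher, and the median of the 6 was -0.16. Over all 9 FACIT genes, with the 3 below the gauge, the median was -0.06.

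All 4 transmembrane collagens were lower, although Col25a1 differed by only -0.01 (3.46 with ZAG and 3.47 in control). Their median was -0.42, and 47.9% of all genes at any level were lower. Col17a1, the hemidesmosome protein BP180 of basal keratinocytes, was at 7.19 with ZAG and 7.66 in control (-0.48, 1.39-fold lower). Col23a1 was at 5.07 with ZAG and 5.55 in control (-0.48, 1.40-fold lower). Col13a1, a collagen of cell adhesions, was at 4.14 with ZAG and 4.49 in control (-0.35). Outside these classes, Col26a1 was at 4.03 with ZAG and 4.45 in control (-0.41), and Col28a1, known from peripheral nerve, was below the gauge on both arrays.

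The differences were larger among the brighter collagen genes. Of the 15 with a mean level that reached the 75th percentile of all genes (5.62), 14 were lower, with a median of -0.49, and the other one was Col9a2. Among all 5545 genes at that level 46.5% were lower and the median was 0.03. Of the 14 between the median and the 75th percentile, 10 were lower (median -0.10), where 48.7% of all genes were. Of the 15 below the median, 9 were lower (median -0.02), where 48.3% of all genes were. All 6 collagens at least 1.5-fold lower (Col12a1, Col6a1, Col6a2, Col1a1, Col4a2 and Col5a2) were in the brightest of these bands, where 5.32% of all genes were. Array background compresses differences of dim probes, and its part in this gradient was not tested.

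**Figure D2:**
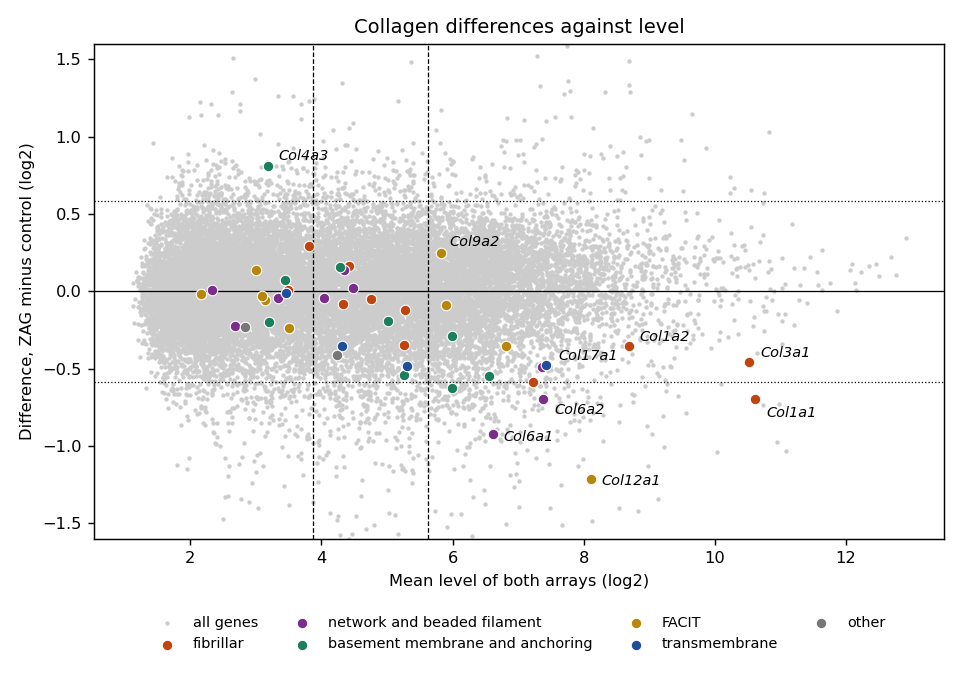
Difference (ZAG minus control, log2) against the mean level of both arrays for all genes (grey) and the 44 collagens (coloured by class). Dashed lines mark the median and 75th percentile of level and dotted lines a 1.5-fold difference, and 45 genes, none of them a collagen, lie beyond the vertical axis. Right of the second dashed line 14 of 15 collagens lie below 0.

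Collagen genes that neighbour each other on a chromosome in RefSeq gene order were set side by side. Col3a1 and Col5a2 had differences of -0.46 and -0.59, Col6a2 and Col6a1 of -0.70 and -0.92, and Col4a1 and Col4a2 of -0.55 and -0.63. In the cluster of Col6a6, Col6a5 and Col6a4 the differences were 0.14, -0.04 and -0.23, with the last of these below the gauge. Col4a6 and Col4a5 had differences of 0.07 and 0.15, and Col9a1 and Col19a1 were both below the gauge. Among these neighbours the widest gap was 0.22, between Col6a2 and Col6a1, while Col4a4 (-0.20) and Col4a3 (0.81), at the edge of the background, lay 1.01 apart. Col1a1 and Col1a2, which make one molecule, lie on different chromosomes. Gaps between collagens that are not neighbours were not read beside those of neighbours.

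Genes that make, bind and cut collagen were read from 4 companion lists. Of 32 measured genes of biosynthesis and crosslinking, 27 were lower and 5 higher, with a median of -0.24, again beside 47.9% lower among all genes. The most negative were Loxl1, a lysyl oxidase relative that crosslinks elastic fibres, at 6.95 with ZAG and 7.89 in control (-0.94), and Tram2, a factor linked to type I collagen synthesis at the endoplasmic reticulum, at 4.38 with ZAG and 5.29 in control (-0.91). P4ha3, a catalytic subunit of the prolyl hydroxylase that stabilises the triple helix, was at 3.68 with ZAG and 4.50 in control (-0.82). Pcolce2, an enhancer of procollagen cleavage, was 0.30 higher, the procollagen protease gene Tll1 0.17 and the prolyl isomerase gene Ppib 0.15. Chosen after their values were seen, the collagen chaperone gene Serpinh1 (7.93 with ZAG and 7.95 in control) and the hydroxylase subunit gene P4hb (9.19 with ZAG and 9.27 in control) hardly differed.

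Of 11 measured collagen receptors 10 were lower, with a median of -0.42, and 0 of the 9 above the gauge were higher. Among all genes at any level 47.9% were lower. Itga2, the integrin chain that binds collagen on keratinocytes and platelets, was at 5.12 with ZAG and 6.08 in control (-0.97). Itga1, a collagen integrin chain of mesenchymal cells, was at 5.18 with ZAG and 5.95 in control (-0.77), and Ddr2, a receptor tyrosine kinase for fibrillar collagens, at 6.49 with ZAG and 7.19 in control (-0.70). The integrin chains and the receptor tyrosine kinase named here were thus lower, and receptors were not matched to the collagens they bind. Among the 23 fibril partners 19 were lower and 4 higher, with a median of -0.36. Tgfbi, a matrix protein that binds collagens, was at 8.41 with ZAG and 9.54 in control (-1.13), Fn1, the fibronectin gene, at 8.72 with ZAG and 9.73 in control (-1.01), and Bgn, the proteoglycan biglycan, at 8.53 with ZAG and 9.40 in control (-0.87). The proteoglycan genes Omd (0.45), Ogn (0.17) and Aspn (0.04) were on the other side of 0.

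Of the 8 genes of collagen-degrading proteases above the gauge 7 were lower, with a median of -0.83, where 47.5% of all genes above it were. Mmp8, Mmp1a and Mmp1b were below it on both arrays, and over all 11 measured genes the median was -0.62. Of these, 3 were at least 2-fold lower, where 0.721% of all genes at any level were. The collagenase gene Mmp13 and the gelatinase gene Mmp9 had differences of -2.63 and -2.13, and Mmp10, a stromelysin, was at 3.52 with ZAG and 4.98 in control (-1.45). Fap, a fibroblast protease that acts on denatured collagen, was at 5.37 with ZAG and 4.96 in control, 0.40 higher. The medians of genes that make collagen and of genes that cut it were thus both below 0.

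Markers of the cells that make collagens were read beside them, and beside all genes at any level, of which 47.9% were lower. Of 12 fibroblast markers 9 were lower, with a median of -0.46, at 3.64 to 11.59 on the ZAG array and 3.94 to 11.55 on the control array. Pdgfra (-0.79), Pdgfrb (-0.84) and Thy1 (-0.74) were lower, whereas Dcn differed by 0.04 and Dpt by -0.12, and Fap was 0.40 and S100a4 0.26 higher. All 12 were above the gauge, and 4 of them also stand among the fibril partners and 1 among the proteases. When the fibroblast marker median was subtracted from every difference, which by construction moved the median of all genes to 0.47, 11 of the 44 collagens stayed below 0, and 9 of the 15 brightest. Col12a1 was then at -0.76 and Col6a1 at -0.46, Col1a1 at -0.24 and Col3a1 at 0.00. By rank, Col3a1 stood at 8.53% from the lowest of the 11090 genes at or above the median level. At most that share of those genes therefore stayed below 0, where 11 of the 29 collagens at that level did. Subtracting 1 constant only cuts the same differences at -0.46, so it does not measure or adjust for the share of fibroblast RNA. Whether fibroblast RNA made up a smaller share of the ZAG sample was not tested.

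Other cell types moved both ways, where 47.9% of all genes at any level were lower. Of 6 measured basal keratinocyte markers, which go with Col17a1, 5 were lower (median -0.37, at 5.68 to 10.62 with ZAG and 5.86 to 11.35 in control), with Krt15 0.66 higher. Of 7 endothelial markers 6 were lower (median -0.37, at 3.77 to 6.57 with ZAG and 3.84 to 7.48 in control). Macrophage markers were lower in 5 of 6 (median -0.66, at 4.84 to 7.65 with ZAG and 5.27 to 8.28 in control). Adipocyte markers were higher in 7 of 7 (median 0.42, at 5.72 to 11.02 with ZAG and 5.39 to 10.45 in control), skeletal muscle markers in 7 of 8 (median 0.60, at 6.29 to 9.46 with ZAG and 6.27 to 9.33 in control) and hair follicle markers in 7 of 8 (median 0.37, at 2.85 to 11.40 with ZAG and 2.58 to 10.96 in control). Of the hair follicle markers, Shh was below the gauge on both arrays, and 6 of the 7 above it were higher (median 0.42). The muscle marker that was lower was Myh1, at 6.29 with ZAG and 7.21 in control (-0.92). The part of these cell types in the collagen differences was not tested. Pericyte and smooth muscle markers were lower in 3 of 6 (median 0.00) and suprabasal keratinocyte markers in 4 of 5 (median -0.18). Of the 3 Schwann cell markers measured, 2 were lower (median -0.20), 1 of them S100b, which was below the gauge on both arrays. The 2 above the gauge were 1 lower and 1 higher (median -0.02). Chondrocyte markers, which would go with Col2a1, Col9a2 and Col11a1, were lower in 4 of 6 (median -0.05), and 4 of them (Matn1, Hapln1, Comp and Cnmd) were below the gauge on both arrays, with Acan at 2.90 with ZAG and 3.21 in control. The sixth, Sox9, which hair follicles also express, was at 7.13 with ZAG and 7.18 in control.

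**Figure D3:**
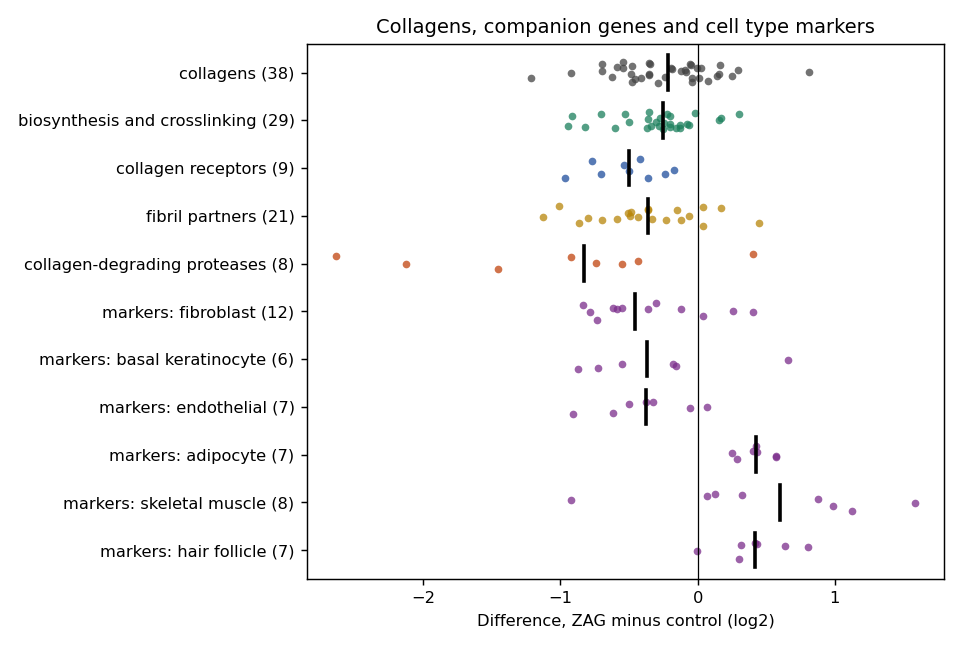
Difference (ZAG minus control, log2) of each gene above the background gauge on at least 1 array, for collagens, companion lists and cell type markers, with the number of genes in brackets and a bar at the median. Collagens, companion lists and fibroblast, basal keratinocyte and endothelial markers have medians below 0, and adipocyte, skeletal muscle and hair follicle markers above 0.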

How the data were processed

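Skin RNA was read on Affymetrix arrays with biotin-labelled sense cDNA, per the labels' protocols. The deposited values are log2 by their range (0.866 to 13.2). How the authors corrected, normalized and summarised the deposited log2 values is not stated by labels or headers. Column medians were 3.36 (ZAG) and 3.33 (control), and the columns correlated across probes with Pearson's r = 0.988. Array number limits the precision: 1 array per group allows no test, and counts past 1.5-fold and 2-fold are descriptions. Probes with 1 symbol in the platform annotation were averaged per gene, and all 47 collagen probes matched the RefSeq gene table by gene identifier. Probes with several symbols (1814) or none (8458) were left out. Every collagen gene was accounted for, and from each companion list up to 3 genes each way were named by size of difference above the gauge. The members, classes and lists were chosen with earlier results of these data known. Steps were tested on simulated data with known shifts. Alternatives were median centring, quantile normalization, loess (span 0.3), the brightest probe, other level filters and, chosen after seeing the data, subtraction of the fibroblast marker median and inclusion of a probe with several symbols. The software was statsmodels 0.14.6, pandas 2.3.3 and numpy 2.4.6 under Python 3.11.15, with matplotlib 3.10.9 for plots.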

Additional observations from a re-analysis of the deposited data

Results flagged for a closer look

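A probe outside the comparison lists Col6a1 together with Rps21, a ribosomal protein gene, and the gene models Gm5963 and Gm19810. It was at 7.37 with ZAG and 6.94 in control, 0.42 higher, whereas the probes that list Col6a1 alone had differences of -0.93 and -0.91. It is given here because it shows a signal above the control array in data that the comparison leaves out. Which of its listed genes it reads was not tested.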

How the results depend on the processing

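Median centring, quantile normalization, loess and the brightest probe per gene left all class medians on their side of 0, moved none of the 44 gene differences by as much as 0.244, and moved no count past 1.5 times. Between 33 and 36 of the 44 collagens were lower under these settings. Over members above the gauge the FACIT median was -0.16. With only genes that reached the 75th percentile of level the medians were -0.49 for all collagens, -0.52 fibrillar, -0.70 network and beaded filament, -0.55 basement membrane and anchoring and -0.22 FACIT, since dim members drop out. At that level 1.5-fold was reached by 295 genes downward and 148 upward, and 2-fold downward by 62, by construction of fewer genes. With no filter 490 genes reached 1.5-fold upward, 1 of them a collagen (Col4a3), and 46 genes reached 2-fold upward. Subtracting the fibroblast marker median, chosen after seeing the data, adds the same 0.46 to every difference, so it turns any smaller negative median by construction. All genes then had a median of 0.47, and the medians were 0.26 for all collagens, 0.34 fibrillar, 0.41 network and beaded filament, 0.26 basement membrane and anchoring, 0.40 FACIT, 0.043 transmembrane and 0.14 for the other 2. Then 1 of 29 collagens reached 1.5-fold downward (1.02% of all genes) and 4 upward (34.5% of all genes), and 0 reached 2-fold downward. With the probe that lists several genes, Col6a1 had a difference of -0.47. No paired analysis was possible because each group has 1 array. Dim collagens near the gauge are limited by signal over background.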
